A study of Mus musculus with 5 samples.

Results

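This section compares thymocytes of the DN2 stage with those of the DN1 stage, with 1 Affymetrix array for each, which are 2 of the 5 arrays in the series. Both populations were lineage negative, CD24 positive and CD44 high, and came from blast-enriched thymocytes of male C57BL6 mice aged 5 weeks. They differed in the gate on CD25, the alpha chain of the interleukin-2 receptor, which was negative for DN1 and positive for DN2. Thymuses of 10 mice were used for the sorts, and the sources used here do not give whether RNA was pooled. The other arrays held DN3 cells (lineage negative, CD24 positive, CD25 positive, CD44 low), pre-double positive cells (preDP: lineage negative, CD24 positive, CD25 negative, CD44 low) and double positive cells (DP: CD4 and CD8 positive, from total thymocytes). They served as context for the levels in DN1 and DN2.

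Progenitors that reach the thymus are not yet bound to the T-cell fate. In the DN1 stage they divide and can still give rise to other blood lineages, and Notch signals from the thymic stroma drive them towards the T lineage. At DN2 they gain CD25, start to transcribe genes of the T-cell receptor complex and of rearrangement, and progressively shut down the regulators of stem cell, myeloid and B-cell programmes.

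The values are MAS5 signals, brightness summaries of the probes for each gene on a linear scale. A signal of 130.4, the median of all probe sets with a single gene, was taken as the floor below which values have no order. Where 1 of the arrays was at or under it, the fold is a lower bound and is written as "at least". Of 8251 genes, 4935 were above the floor in DN1, 4684 in DN2 and 4465 in both. With 1 array per population there is no replicate spread, no test and no p-value, and every difference below is between 2 arrays. As bulk RNA was measured, fewer cells of a type and less RNA per cell cannot be told apart.

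DN2 had higher signal of T-cell receptor gamma segments, the CD3 chain genes Cd3g and Cd3e, Thy1, Il7r and the machinery of DNA replication and mitosis. DN1 had higher signal of neutrophil, macrophage, dendritic-cell and B-cell genes, and of regulators such as Id2 and Spi1. Of 5154 genes above the floor on either array, 245 (4.75%) reached a 2-fold difference with DN2 the higher and 441 (8.56%) with DN2 the lower, 13.3% in all. These shares are the background against which the gene groups below are read. The median log2 ratio, DN2 over DN1, was 0.13 over these genes. It was 0.18 over those above the floor on both arrays, of which 69.0% lay within 1.5-fold.

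The differences were lopsided in size. At least 3-fold higher in DN2 were 37 genes, against 241 at least 3-fold lower. At 5-fold the numbers were 8 and 139, and at 10-fold 4 and 72. No gene was 20-fold higher in DN2, whereas 43 were 20-fold lower and 8 at least 100-fold lower. Among the genes higher in DN2, 23 were at or under the floor in DN1, and among those lower, 182 were at or under it in DN2. The 2-fold line itself marks no break. Top2a, the mitotic topoisomerase gene, was counted at 2.004-fold and Pag1, which encodes a membrane adaptor, was not at 1.999-fold. On the other side Ltb was 2.011-fold lower and counted, and Klf6 1.998-fold lower and not.

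**Figure D1:**
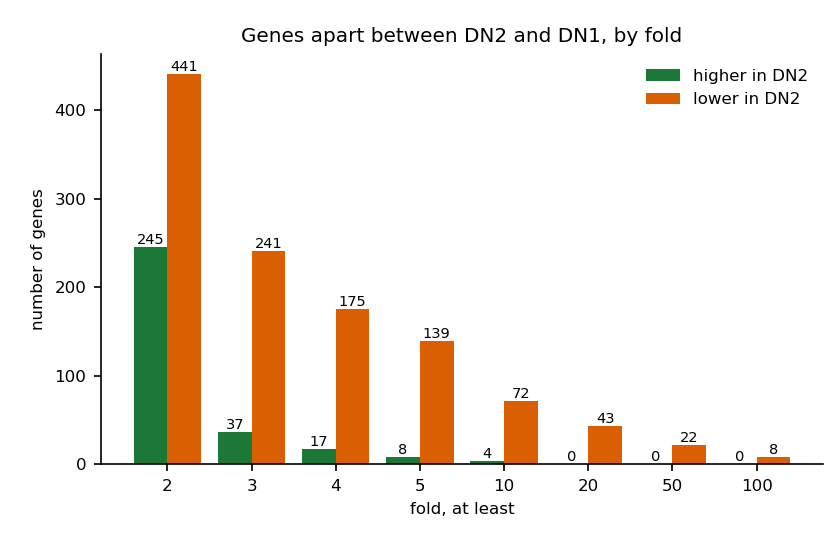
Number of genes (y axis) that were at least the fold on the x axis higher (green) or lower (orange) in DN2 than in DN1, of 5154 genes above the floor on either array. The bars for lower genes are taller at every fold shown, with 72 against 4 genes at 10-fold.

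**Figure D2:**
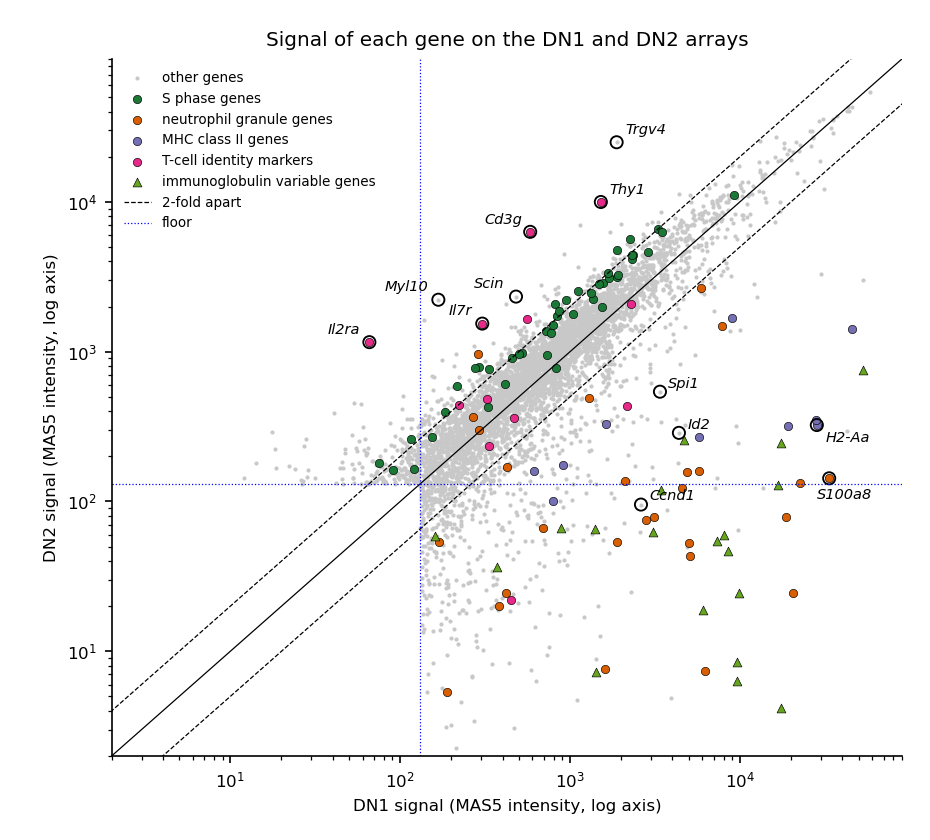
Signal of each gene in DN1 (x axis) and DN2 (y axis), both MAS5 intensity on a log axis, with 1 point per gene above the floor on either array. Dashed lines mark 2-fold, dotted lines the floor of 130, and open rings the named genes. Neutrophil, class II and immunoglobulin variable genes lie far below the diagonal, and S phase genes lie in a band just above it.

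Scaling bears on the split between higher and lower genes. Giving all arrays the same median put 524 genes above 2-fold in DN2 and 347 below, so that 60.2% were higher in place of 35.7%. That scaling moved the median ratio over genes measured on both arrays to 0.41. With DN2 scaled to a median ratio of 1 instead, an alternative chosen after seeing the data, 133 were higher and 511 lower, and 20.7% were higher. The medians of gene groups are therefore to be read against the median of all genes, and single log2 ratios near 0 have no settled sign. Counts of members above 0 have the same limit, as the median of all genes was itself above 0. The share of all genes above 0 was not counted.

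The DN1 array held strong signal of genes listed for cell types outside the T lineage. In 9 lists of other cell types and the immunoglobulin genes together, 296 genes made up 11.6% of the summed signal of all genes in DN1 and 1.94% in DN2. On the remaining arrays the share was between 1.18% and 1.91%. Of the 441 genes lower in DN2, 121 were in these lists, which is 27.4%, and of the genes higher in DN2, 5. Without them 240 genes were higher and 320 lower. The lists share members with each other, and with lists of the T lineage and of rearrangement, such as Gfi1 and Rag1. Whether such cells were present was not tested. Nor was how far their RNA bears on the ratios of other genes, for this or any gene group that follows.

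The error that can be seen within these arrays is the disagreement between probe sets of the same gene. For 573 genes with a pair of probe sets above the floor, the log2 ratios differed with an SD of 0.53. Of 28 such genes that were lower in DN2 by the brighter probe set, the other was also below 0 for 28 and itself 2-fold lower for 19. Of 30 that were higher, the other was above 0 for 28 and 2-fold higher for 8. The 9 spiked hybridisation controls had log2 ratios between -0.36 and -0.06. As a measure of RNA quality, 3' signal over 5' signal was 3.06 in DN1 and 3.08 in DN2 for actin, and 2.04 and 1.70 for Gapdh. Actin itself was 1.87-fold lower in DN2 by its 3' control.

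The genes of the gate were read first. Il2ra, which encodes CD25, had a signal of 65.8 in DN1 and 1156 in DN2, and was at least 8.87-fold higher in DN2, as the gate would have it. Cd24a was above the floor on both arrays, at 6849 in DN1 and 9810.2 in DN2. Cd44 was under the floor on both and checks nothing. Cd4 was also under it on both, at 121 in DN1 and 27.9 in DN2. Cd8a and Cd8b1 encode the alpha and beta chains of the CD8 coreceptor of DP cells, and the alpha chain is also known from some dendritic cells. Both were above the floor in DN1 although the gate was lineage negative. Cd8a was 755 in DN1 and 10.7 in DN2, and Cd8b1 was 342 in DN1 and 19.4 in DN2.

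The other markers given for DN2, Cd3g, Thy1 and Il7r, were all higher on the DN2 array. Cd3g, the gamma chain of CD3, read 582, 6301, 15849.9, 6179 and 11294 on the arrays from DN1 to DP, and was 10.8-fold higher in DN2. Thy1, a surface glycoprotein of T cells, had 1517, 9968, 21287, 20059 and 26069 over the same arrays and was 6.57-fold higher. Il7r, the receptor chain for a survival factor of early thymocytes, had 304, 1538, 748, 295 and 40.5 and was 5.06-fold higher. Thy1 and Cd3g were high from DN2 on, whereas Il7r was highest in DN2.

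Across the list of T-cell identity markers, 5 of 12 measured members were 2-fold or more above DN1 and 2 below it, with a median log2 ratio of 0.78. The CD3 chains did not move alike. Cd3e was 2.95-fold higher in DN2, at 558 in DN1 and 1648 in DN2. Cd247, the zeta chain, had 222 in DN1 and 439 in DN2, just under 2-fold. Cd3d was 335 in DN1 and 234 in DN2, with a log2 ratio of -0.52, and reached 5740.1 only in DN3. Cd5 and Cd6, receptors that damp signalling, had log2 ratios of 0.58 and -0.37, and Cd27, a receptor of the TNF family, one of -0.13. Second probe sets gave -1.05 for Cd6, past the 2-fold line, and 0.40 for Cd27, of the other sign. The lower pair was Cd7, 4.97-fold lower in DN2 at 2157 in DN1 and 434 in DN2, and the adhesion receptor gene Cd2, at least 3.46-fold lower at 451 in DN1.

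The gamma chain locus of the T-cell receptor had variable segments far brighter in DN2, both of those measured. Trgv4 read 1879, 24961, 14496, 3679.9 and 79.4 from DN1 to DP. Trgv1 had 1143, 6958, 9748, 3009 and 102. These variable segments were thus above the floor in DN1 already, at their peak in DN2 or DN3, and under the floor in DP. Of the other receptor loci, Trbv13-2, a beta segment, was 92.8 in DN1 and 273 in DN2, and its other probe set read 99.8 and 320.5. The alpha segment Trav9d-3, a locus that rearranges late, was 3.99-fold lower in DN2, at 1087 in DN1 and 273 in DN2, and 20852 in DP. Over the alternatives the log2 ratio of Trav9d-3 lay between -2.17 and -0.34. Trbv1, another beta segment, was bright on both arrays, at 16348 in DN1 and 27092 in DN2. Probe sets of variable segments can read related segments.

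Signalling genes downstream of the receptor were less apart. None of 17 measured members was 2-fold higher or lower, and the median was -0.17, which lies between -0.34 and 0.21 over the alternatives and has no settled direction. Zap70, the kinase recruited to the receptor, had 1368 in DN1 and 1025 in DN2. Syk, its relative in earlier cells, had 3313 in DN1 and 2043 in DN2, and Fyn 843 in DN1 and 530.0 in DN2. Lat, the membrane adaptor, was 318 in DN1 and 243 in DN2. The largest positive log2 ratios were those of Cd247, the adaptor gene Sh2d2a at 0.93 and the kinase gene Prkcq at 0.87.

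Transcription factors of the T lineage were split. Of 20 measured, 5 were 2-fold higher in DN2 and 3 lower, with a median of 0.40. Gata3, required for T-cell commitment, read 451, 1448, 1517, 1376 and 1223 from DN1 to DP and was 3.21-fold higher. Gfi1, a zinc finger repressor, had 285, 967, 1249, 1052 and 2355 and was 3.39-fold higher. Myb was 2.60-fold higher at 4361 in DN1 and 11325 in DN2, Tcf12, which encodes the E protein HEB, 2.12-fold higher at 1125 in DN1 and 2386 in DN2, and Ets1 2.52-fold higher at 133 in DN1 and 335 in DN2, close to the floor in DN1. A second Ets1 probe set was under the floor on both arrays. Members under 2-fold included Runx1, at 63.3 in DN1 and 209.6 in DN2, Sox4 with 0.71 and Tcf3, which encodes E2A, with -0.19.

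The members lower in DN2 were inhibitors and factors shared with other lineages. Id2, which blocks E proteins and is high in innate and dendritic cells, was the farthest apart, with 4370.3, 287, 176, 144 and 222 from DN1 to DP, and 15.2-fold lower in DN2. Id3, a related inhibitor, was at least 2.32-fold lower, from 302 in DN1, and was above the floor again in DN3, at 825. Spib, an Ets factor of dendritic and B cells, was at least 7.90-fold lower, with signals of 1029.9, 102, 634, 25.7 and 17.3. Tcf4, the E protein of plasmacytoid dendritic cells, had a log2 ratio of -0.73.

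Notch receptors and their targets differed gene by gene. Of 20 measured pathway genes, 3 were 2-fold higher, Notch1, Notch3 and Il2ra, and 2 lower, Notch2 and Notch4. Il2ra encodes CD25, by which the populations were sorted, so its call follows from the gate and says nothing of the pathway. The list's median was 0.32, but -0.07 with the lower floor. Notch1 and Notch3 had signals of 3032 in DN1 and 7325 in DN2 and of 158 in DN1 and 682 in DN2. Notch2 was 2.43-fold lower and Notch4 at least 2.71-fold lower, at 436 and 354 in DN1. The targets Hes1 and Dtx1 had log2 ratios of 0.67 and 0.47, and Ptcra, the pre-T-cell receptor alpha chain, was under the floor on both arrays. Fbxw7, a ubiquitin ligase subunit that targets Notch for decay, had 0.84, and Rbpj, the DNA-binding partner of Notch, -0.56.

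Genes of rearrangement and end joining all had log2 ratios above 0. Of 8 measured, 3 were 2-fold higher, and the median was 0.91, against 0.13 over all measured genes. Rag1, a subunit of the recombinase, was under the floor in DN1 and 388 in DN2, far from the 5816 it had in DN3. Its weaker probe set was under the floor on both. Rag2 was 91.7 in DN1 and 234 in DN2, also under the floor in DN1. Dntt, which adds bases at the joins, was already 8979 in DN1 and was 17724 in DN2, with all 3 probe sets above 0. Xrcc5 and Xrcc6 encode the Ku subunits that hold broken ends. Xrcc5 was 3.26-fold higher at 141 in DN1 and 461 in DN2, and Xrcc6 2.24-fold higher at 1457 in DN1 and 3260.0 in DN2. Xrcc5 was close to the floor in DN1, and its log2 ratio lay between 0.45 and 1.82 over the alternatives.

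Progenitor genes were mixed, in contrast to the near absence of many of them from DN3 on. Of 16 measured members 5 were lower in DN2 and 1 higher, at a median of -0.31. Of 23 on the array 16 were above the floor in DN1 and 14 in DN2, but 6 in DN3, 3 in preDP and 4 in DP cells. Kit, the receptor for stem cell factor, was nearly level, at 1166 in DN1 and 1347 in DN2, and 254 in DN3. Lyl1, a basic helix-loop-helix factor of progenitors, had 7355, 10202, 67.1, 116 and 93.8, and its other probe set gave a log2 ratio of 0.38. Nfe2, a leucine zipper factor, was 2.51-fold higher, with 1832, 4606, 467, 59.4 and 35.6. These stayed high in DN2 and dropped only after it.

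Other progenitor genes were lower in DN2 already. Spi1, which encodes PU.1, had 3380.5, 540.0, 78.8, 53.7 and 58.7 from DN1 to DP and was 6.26-fold lower. Cebpa, a master regulator of granulocytes, was 6.52-fold lower at 1099 in DN1 and 168 in DN2. Lmo2, a partner of Lyl1, was 5.95-fold lower, with 1286, 216, 97.8, 128 and 98.9. Cd34, a surface protein of progenitors, was 3.79-fold lower at 1249 in DN1 and 329 in DN2, and Procr at least 3.25-fold lower. Hhex, a homeobox factor gene, had a log2 ratio of -0.90. For Flt3, a cytokine receptor of early progenitors and dendritic cells, the probe sets disagreed in size. The one used gave 471 in DN1 and 315 in DN2, and the other 4289.9 in DN1 and 194 in DN2, a log2 ratio of -4.47. On the DN3, preDP and DP arrays the one used, with the suffix _r_at, stayed above the floor, at 390, 314 and 234. The other, with the suffix _s_at, was under it there, at 37.3, 56.3 and 114. Which of them reads Flt3 better was not tested.

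A further group was brightest in DN2 itself. With all values floored, 18 genes had a DN2 signal at least 2-fold above each of the other 4 arrays. Fgf3, a fibroblast growth factor gene, had 176, 873, 10.4, 9.26 and 5.19 from DN1 to DP. Scin, an actin-severing protein gene, had 480.3, 2329, 381, 93.8 and 52.7, and Cpa3, a mast cell protease gene also seen in early progenitors, 926, 4451, 303, 179 and 2.78. A weaker Cpa3 probe set had a log2 ratio of 0.96. Dpp4, a surface peptidase, was 155 in DN1 and 552 in DN2, the prostaglandin reductase gene Ptgr1 699 in DN1 and 2334 in DN2, and the fucosyltransferase gene Fut8 816 in DN1 and 2619.7 in DN2. Il7r, Il2ra, Nfe2, Bcl2, Tspan9, the kinase gene Eef2k and the somatostatin receptor gene Sstr2 were also among them. F2r, the thrombin receptor gene, was too, by the probe set used, at 272 in DN1 and 1089.6 in DN2. Its next probe set read 204 in DN1 and 148 in DN2, the other way round.

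**Figure D3:**
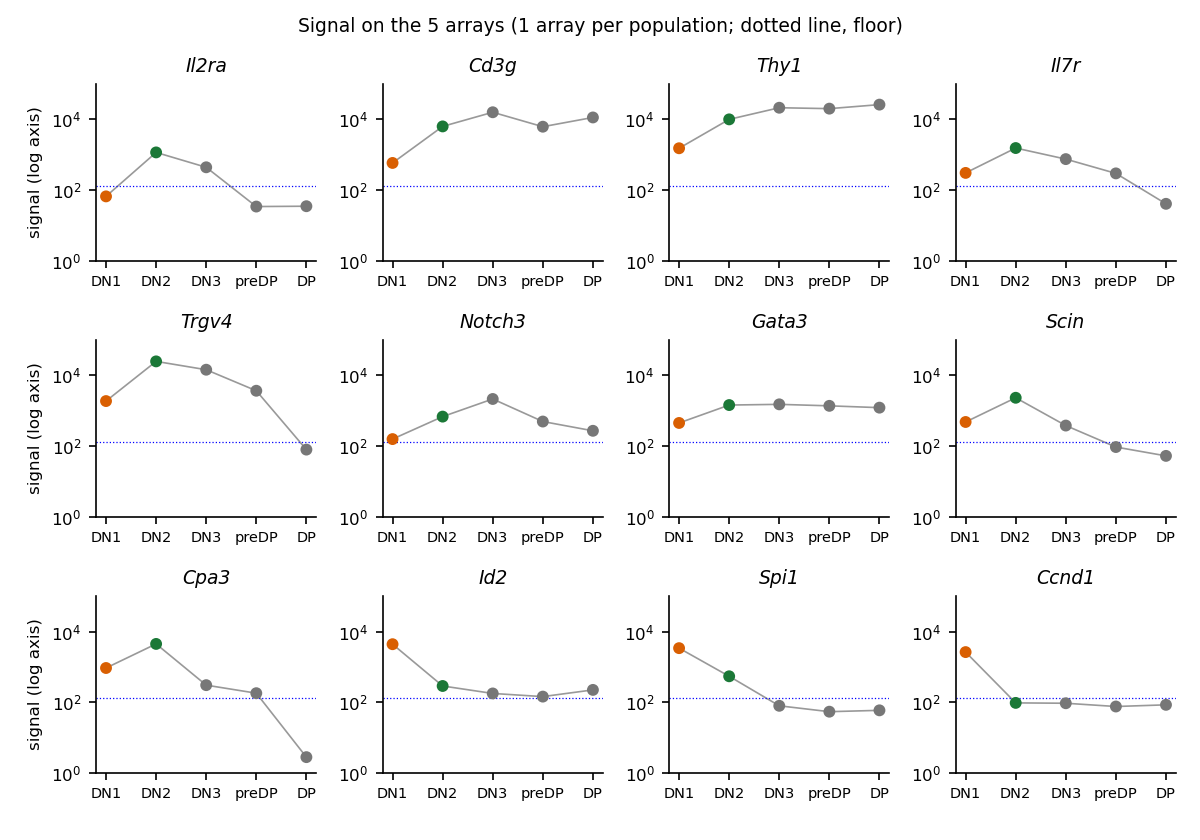
Signal (y axis, log) of 12 genes on the 5 arrays in stage order (x axis), with DN1 in orange, DN2 in green, the others in grey and the floor as a dotted line. Il2ra, Scin and Cpa3 peak in DN2, Thy1 and Cd3g stay high after it, and Id2, Spi1 and Ccnd1 are highest in DN1.

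In a list of genes known from the early stages of the T lineage, 7 of 21 measured members were higher in DN2 and 6 lower, with a median of 0.42. Besides Fgf3, Scin and Cpa3 the higher ones were Myl10, Akr1c13, Rgcc and Khdc1c. Myl10, a myosin light chain gene of lymphocyte precursors, had 168, 2219, 2744, 186 and 32.2 from DN1 to DP, and was 13.2-fold higher in DN2. Akr1c13, an aldo-keto reductase gene, had 139, 1613, 1687, 422 and 341. Khdc1c, at 53.8 in DN1 and 454 in DN2, was at least 3.48-fold higher, but by a probe set that may read related genes. Rgcc, a cell cycle regulator, had 422, 2089, 5176, 3235 and 4185. Myl10 and Akr1c13 were at least as bright in DN3 as in DN2 and far dimmer after it. The members lower in DN2 included Pld4 at 2062 in DN1 and 356 in DN2, and the tetraspanin genes Cd82 and Cd81 at 1512 in DN1 and 532 in DN2 and 1155 in DN1 and 485 in DN2.

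Further genes among the highest ratios were in none of the lists. Endou, an endoribonuclease gene, had 154, 689.6, 2866, 3565 and 8819, with the DN2 value an early step of a steady climb. Fkbp5, a co-chaperone of steroid receptors, was 3.68-fold higher, Acot7, an acyl-CoA thioesterase gene, 3.30-fold higher, Mllt3, which encodes a chromatin reader, 3.24-fold higher, and Pdlim1 3.05-fold higher. Adgrd1, an adhesion receptor gene, was 208 in DN1 and 805 in DN2, and Serbp1, which encodes an mRNA-binding protein, 212 in DN1 and 964 in DN2. Pla2g12a was 3.58-fold higher, although its weaker probe set was under the floor in DN1.

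Among genes that only DN2 of the pair had above the floor, Il2ra was the brightest and Prkca, a protein kinase C gene, came next at 103 in DN1 and 502 in DN2. Eef2k was 58.7 in DN1 and 444 in DN2, and Exo1, an exonuclease of DNA repair, 109.5 in DN1 and 356 in DN2. Smo, the transducer of Hedgehog signals, was 114 in DN1 and 354 in DN2 and reached 741 in DN3. Maoa was 117 in DN1 and 353 in DN2, but its other probe sets were under the floor. Mst1r, a receptor tyrosine kinase gene, was 17.5 in DN1 and 291 in DN2, and the DNA repair gene Mutyh 127 in DN1 and 312 in DN2. Apart from Il2ra these genes were dim in DN2 too, so the size of their folds rests on the floor.

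Cytokine receptors leaned to DN1. Of 26 measured, 9 were 2-fold lower and 2, Il7r and Il2ra, higher, and the median was -0.61. The call of Il2ra follows from the gate on CD25. The receptors for myeloid growth factors made up much of the lower group. Csf1r, for macrophage colony-stimulating factor, was 1563 in DN1 and not above the floor in DN2, with a weaker probe set at a log2 ratio of -0.38. Csf2ra was 5.97-fold lower at 1319.5 in DN1 and 221 in DN2, and its partners Csf2rb and Csf2rb2 were at least 3.38-fold lower and at least 4.90-fold lower. The decoy receptor gene Il1r2 was at least 2.87-fold lower and Il10rb 2.37-fold lower, and Il6ra was 338 in DN1 and 121 in DN2. Il4ra and Ifngr1 had log2 ratios of -0.51 and 0.72. Among 16 measured JAK kinase, STAT, SOCS and related genes behind these receptors, Jak2 alone was 2-fold apart, at 890.5 in DN1 and 418 in DN2. Stat5a and Stat4 had log2 ratios of 0.98 and 0.74, with a second Stat5a probe set at 1.79.

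Genes of DNA replication were higher in DN2 as a group. Of 44 measured S phase genes, 15 were 2-fold or more higher and 0 lower, against a background of 4.75% higher, and 43 had a log2 ratio above 0. The median was 0.91, against 0.13 over all measured genes, and between 0.74 and 1.15 under the alternatives. Chaf1a, which loads histones behind the fork, was 2.83-fold higher at 274 in DN1 and 776 in DN2. The primase subunit genes Prim1 and Prim2 were 2.71-fold higher and 2.72-fold higher. Rrm2, the regulated subunit of ribonucleotide reductase, was 2.54-fold higher at 820.1 in DN1 and 2081 in DN2. Uhrf1, a partner of the maintenance methyltransferase, was 2245 in DN1 and 5619 in DN2, and Lig1, the replicative ligase, 1112 in DN1 and 2534 in DN2. The helicase subunit gene Mcm7 was 3281 in DN1 and 6578 in DN2. Mcm4, of the same helicase, had a log2 ratio of 0.71, and Pcna, the sliding clamp, one of 0.85. Ccne1 was the member below 0, at -0.08.

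Mitotic genes followed. Of 44 measured, 13 were higher in DN2 and 1 was lower. The median was 0.76. Ect2, needed for cytokinesis, was 2.55-fold higher at 414 in DN1 and 1057 in DN2. Nusap1 was 2.55-fold higher, the spindle motor gene Kif11 2.45-fold higher, the condensin subunit gene Smc4 2.23-fold higher and the checkpoint kinase gene Ttk 2.12-fold higher. Cdc20, an activator of the anaphase-promoting complex, was 2069.9 in DN1 and 4267 in DN2. Mki67, a marker of dividing cells, was 1830.3 in DN1 and 4128 in DN2. Pttg1, which encodes securin, was the exception, 2.16-fold lower at 1630.1 in DN1 and 755 in DN2, by a probe set with the suffix _s_at. The folds were modest, and none reached 3-fold. On the arrays not used for this ratio the list held 1.27% of summed signal in DN3, 1.92% in preDP and 0.963% in DP, against 0.962% in DN1 and 1.56% in DN2.

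The regulators of entry into the cycle had no common direction. Among 22 cyclins, kinases and inhibitors, none was 2-fold higher and 3 were lower, with 11 above 0 and 11 below. The share lower was 13.6%, against 8.56% of all measured genes. Ccnd1, which encodes cyclin D1, had 2613, 95.3, 93.1, 75.3 and 84.0 from DN1 to DP, so it was above the floor in DN1 alone. Its weaker probe set was 139.9 in DN1 and 65.6 in DN2. Ccnd2 and Ccnd3, the cyclins usual in lymphocytes, had log2 ratios of 0.37 and 0.60. Those of the kinase genes Cdk2 and Cdk4 were 0.74 and 0.66, and the list's highest was 0.98. Btg1, an antiproliferative gene, was 3.55-fold lower at 1036 in DN1 and 292 in DN2, and Gadd45b 2.11-fold lower. Cdkn1a was 689 in DN1 and 576 in DN2. The list's median, -0.05, has no settled sign, and was 0.20 over the members above the floor on both arrays.

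Among 23 survival and death genes, Bcl2 alone was 2-fold higher and none was lower. The probe sets of Bcl2 differed, with 394 in DN1 and 888 in DN2 by the one used and log2 ratios of 0.08 and 2.03 by the others. Mcl1 and Bcl2l1, further guards against cell death, had log2 ratios of -0.61 and 0.43. The list's median was -0.13, and 0.12 with arrays scaled to an equal median.

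Chromatin regulators leaned to DN2. Of 42 measured, 5 were higher in DN2 and 1 was lower. The median was 0.51. Cbx5, which encodes the heterochromatin protein HP1 alpha, was 2.56-fold higher, Ezh2, the Polycomb methyltransferase, 2.34-fold higher at 1357 in DN1 and 3181 in DN2, and the remodelling ATPase gene Smarca4 2.20-fold higher. Smarcc1 and Kmt2a were 2.09-fold higher and 2.06-fold higher. Hdac5 was 2.30-fold lower.

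Biosynthetic groups showed small shifts with few members apart. None of 50 measured Myc and ribosome biogenesis genes was 2-fold apart. Of them 45 were above 0, and the median was 0.45, against 0.13 over all measured genes. Nop56 and Pa2g4 had log2 ratios of 0.90 and 0.98, Myc itself 0.37. The amino acid transporter genes Slc7a5, Slc3a2 and Slc1a5 lay below 0, at -0.52, -0.21 and -0.41. Cholesterol and lipid synthesis genes were higher for 4 of 17 and lower for 1, with a median of 0.61. Acly, which makes cytosolic acetyl-CoA, was 2.36-fold higher at 1786 in DN1 and 4222 in DN2. Idi1, Sqle and Hmgcs1, enzymes of the sterol pathway, were 2.34-fold higher, 2.06-fold higher and 2.03-fold higher. Scd1, a desaturase gene, was at least 2.45-fold lower.

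Housekeeping groups stayed near the all-gene median. The 22 ribosomal protein genes had a median of 0.08, 44 respiratory chain genes 0.23 and 33 proteasome subunits 0.25, with 1 member in all 2-fold apart, Psmd7 at 1957 in DN1 and 4161 in DN2. Of 17 glycolytic genes 2 were lower, or 11.8%, near the 8.56% of all measured genes. They were Pfkp at 841 in DN1 and 123 in DN2 and the glucose transporter gene Slc2a3 at 295 in DN1 and 93.1 in DN2. The glycolytic median was 0.10. The medians of ribosomal and glycolytic genes turned negative when DN2 was scaled to a median ratio of 1, at -0.10 and -0.07.

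**Figure D4:**
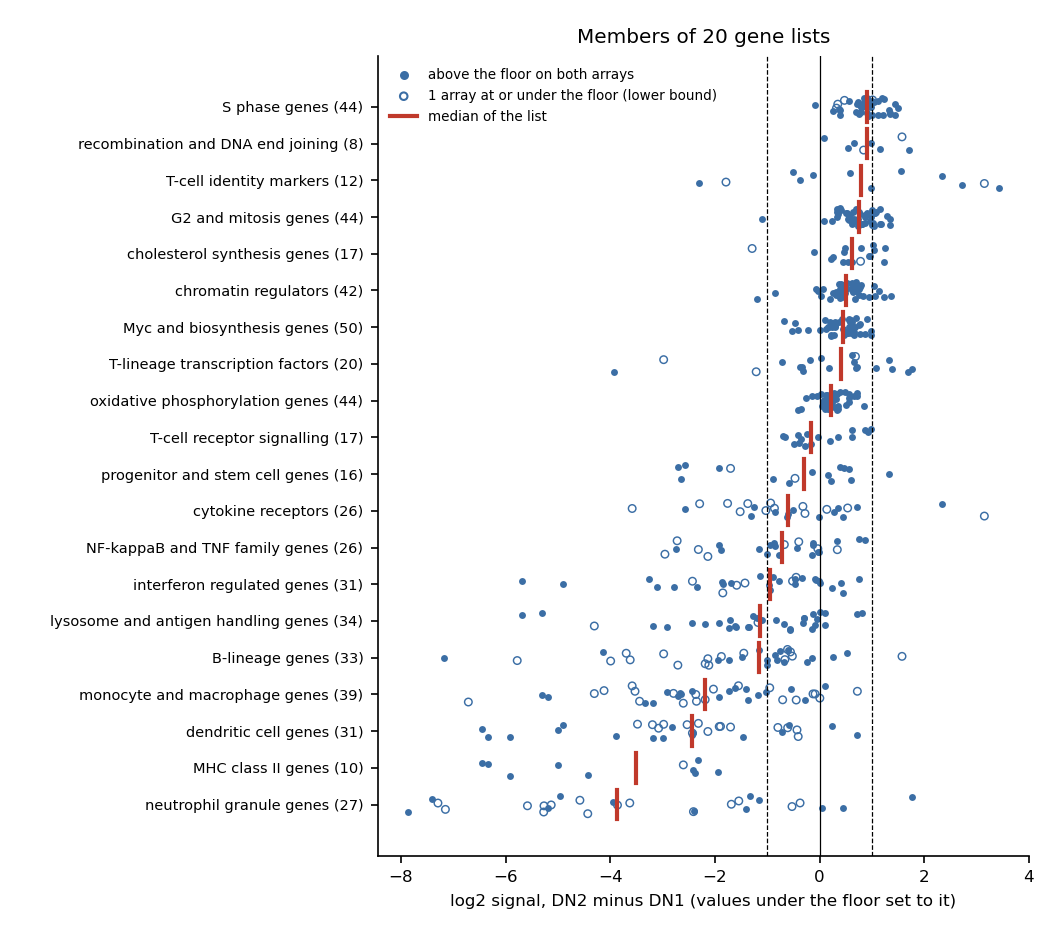
Log2 signal difference, DN2 minus DN1 (x axis), of each measured member (points) of 20 gene lists (y axis, number measured in brackets). Open points are bounds with 1 array at or under the floor, red bars are list medians, and dashed lines mark 2-fold. S phase genes have a median of 0.91 and neutrophil granule genes one of -3.86.

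**Figure D5:**
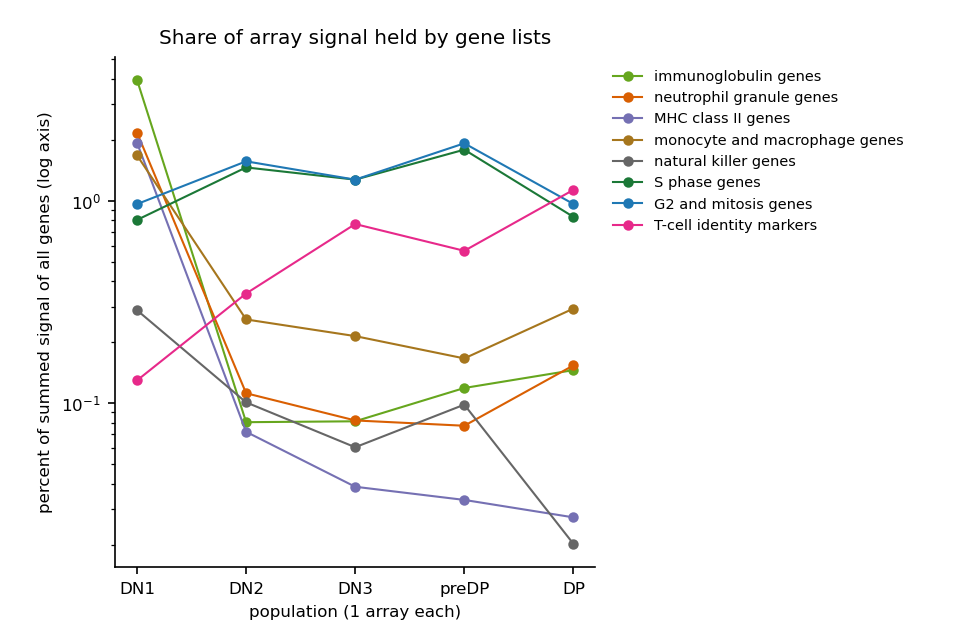
Percent of the summed signal of all genes (y axis, log) held by 8 gene lists on each array (x axis). Immunoglobulin genes hold 3.95% in DN1 and 0.0805% in DN2, while the share of S phase genes is 0.804% and 1.46%.

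Neutrophil granule genes were nearly all brighter in DN1. Of 27 measured, 22 were at least 2-fold lower in DN2, against a background of 8.56%, and the median was -3.86. Above the floor were 27 of 31 on the array in DN1, 12 in DN2 and 5 in DN3. S100a8, a calcium-binding protein gene of neutrophils and the farthest apart of all genes above the floor on both arrays, was 33502 in DN1 and 143 in DN2. Camp, which encodes a cathelicidin, was 22708 in DN1 and 133 in DN2. Both stood just above the floor in DN2. Lcn2, an iron-sequestering granule protein gene, was 6258 in DN1 and 7.39 in DN2, and Ltf, which encodes lactoferrin, 5045 in DN1 and 43.4 in DN2. Chil3 was 5026 in DN1 and 53.1 in DN2, and Pglyrp1, a peptidoglycan-binding protein gene, 2815 in DN1 and 75.7 in DN2, with a second probe set at 1615 in DN1. The proteases of primary granules, Elane and Prtn3, were 4569 in DN1 and 123 in DN2 and 3124 in DN1 and 78.4 in DN2, both under the floor in DN2. Ly6g, a surface marker of neutrophils, was 381 in DN1 and not above the floor in DN2. Anxa1, an annexin of myeloid cells, was 4907 in DN1 and 158 in DN2, with a second probe set under the floor in DN2.

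Some genes of this group were above the floor in DN2 as well. Mpo, the myeloperoxidase gene, was 7869 in DN1, 1488 in DN2 and 14.1 in DN3, so it was well above the floor in DN2. Cyba, a subunit of the phagocyte oxidase, was 5915 in DN1 and 2663 in DN2, and Ncf4 1293 in DN1 and 489 in DN2. Csf3r, the receptor for granulocyte colony-stimulating factor, had 269.6 in DN1 and 367 in DN2 by the probe set used, but its other probe sets were above the floor in DN1 alone, at 212 and 159.5. A weaker Mpo probe set was also above the floor in DN1 alone. Gfi1, which also acts in granulocytes, was the member higher in DN2.

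Macrophage and monocyte genes were lower for 29 of 39 measured and higher for none, with a median of -2.19 (-1.46 with the mean over probe sets). Mpeg1, which encodes a pore-forming protein of phagocytes, was 13693 in DN1 and 122 in DN2 and at least 105-fold lower. The lysozyme gene Lyz2 was 5758 in DN1 and 159 in DN2, the galectin gene Lgals3 2269 in DN1 and 24.9 in DN2, and the chemokine receptor gene Ccr2 1417 in DN1 and 8.84 in DN2. Apoe was 10.1-fold lower at 3429 in DN1 and 341 in DN2. The complement genes C1qa, C1qb and C1qc were dimmer, at 382, 533 and 529 in DN1. Adgre1 and Mrc1, markers of tissue macrophages, were under the floor on both arrays, at 21.0 and 74.0 in DN1. Tyrobp, an adaptor of myeloid and natural killer receptors, was 8706 in DN1 and still 1362 in DN2, and Fcer1g 253 in DN1 and 21.3 in DN2.

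Dendritic-cell genes were lower for 23 of 31, with a median of -2.43 (between -2.98 and -1.82 over the alternatives). Irf8 and Batf3, factors of the cross-presenting subset, were 29.8-fold lower and 14.9-fold lower, at 9429 and 1993 in DN1. Xcr1, a receptor of the same subset, was 425 in DN1 and 114 in DN2. Itgax, which encodes CD11c, was 7.05-fold lower at 2624 in DN1 and 372 in DN2. Genes of activated dendritic cells were above the floor in DN1 as well. The chemokine genes Ccl17 and Ccl22 were 1456 and 2846 there, and Cd83, Fscn1 and Ccr7 were 1195, 4435 and 485. Of these Ccl22 and Fscn1 stayed above the floor in DN2, at 356 and 822. Cystatin C, Cst3, was 9.09-fold lower at 30024 in DN1 and 3305 in DN2.

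All 10 measured genes of MHC class II presentation were 2-fold or more lower in DN2, with a median of -3.51. The chains that bind peptide were the farthest apart. H2-Aa was 28335 in DN1 and 324 in DN2, H2-Eb1 28070.2 in DN1 and 348 in DN2 and H2-Ab1 19185 in DN1 and 317 in DN2. Cd74, the invariant chain, was 45515 in DN1, 1425 in DN2 and 174 in DN3. H2-DMa and H2-DMb1, which load peptide, were 5.37-fold lower and 21.4-fold lower, and H2-Oa and H2-Ob, which restrain loading, 5.00-fold lower and 5.24-fold lower. Ciita, the transactivator of the whole group, was 3.82-fold lower at 609 in DN1 and 159 in DN2.

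Class II promoters are known for a shared set of boxes, of which the Y box holds the letters ATTGG, read by the factor NF-Y. The promoters of the group are shown because every measured member was lower in DN2, and these genes are known to share control elements. In the RefSeq windows of 300 bases around the start (250 before it and 50 after, GRCm38.p6), 8 of 9 windows had ATTGG on the strand of the gene. They belong to 8 of 11 listed genes, among them H2-Eb2, which did not reach the floor on either array. Of the other listed genes, H2-Ab1 and Ciita had no window. Cd74, on another chromosome than these genes, was left out of the counts by choice, so they do not cover it. In 7 of the windows the letters began between 100 and 40 bases before the start. Over all 32851 windows 22.1% had the letters on the strand of the gene, 37.4% on either strand (as ATTGG or CCAAT), and 7.71% on the gene's strand in that stretch. The bounds of 100 and 40 were set after the matches were seen. In the windows below, 5' to 3' on the strand of each gene, capitals mark ATTGG. They lie at chr17:34287774-34288073 (minus strand) for H2-Aa, chr17:34305617-34305916 (plus) for H2-Eb1, chr17:34152941-34153240 (plus) for H2-DMb1, chr17:34238655-34238954 (plus) for H2-Ob and chr17:34092129-34092428 (plus) for H2-Oa.
H2-Aa: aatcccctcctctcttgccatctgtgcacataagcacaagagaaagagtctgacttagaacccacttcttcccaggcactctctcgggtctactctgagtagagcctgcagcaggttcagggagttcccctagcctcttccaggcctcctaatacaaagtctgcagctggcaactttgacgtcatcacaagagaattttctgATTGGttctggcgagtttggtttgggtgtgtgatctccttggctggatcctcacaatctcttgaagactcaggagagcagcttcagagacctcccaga
H2-Eb1: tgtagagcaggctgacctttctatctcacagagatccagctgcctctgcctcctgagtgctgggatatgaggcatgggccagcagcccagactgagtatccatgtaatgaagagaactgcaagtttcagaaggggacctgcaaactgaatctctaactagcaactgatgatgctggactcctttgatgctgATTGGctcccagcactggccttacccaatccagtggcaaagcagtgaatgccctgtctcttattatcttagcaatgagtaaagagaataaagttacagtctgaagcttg
H2-DMb1: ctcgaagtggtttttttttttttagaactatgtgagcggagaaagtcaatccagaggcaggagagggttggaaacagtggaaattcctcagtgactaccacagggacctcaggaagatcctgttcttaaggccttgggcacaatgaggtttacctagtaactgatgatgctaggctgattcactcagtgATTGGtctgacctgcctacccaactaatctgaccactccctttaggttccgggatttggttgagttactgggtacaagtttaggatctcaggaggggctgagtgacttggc
H2-Ob: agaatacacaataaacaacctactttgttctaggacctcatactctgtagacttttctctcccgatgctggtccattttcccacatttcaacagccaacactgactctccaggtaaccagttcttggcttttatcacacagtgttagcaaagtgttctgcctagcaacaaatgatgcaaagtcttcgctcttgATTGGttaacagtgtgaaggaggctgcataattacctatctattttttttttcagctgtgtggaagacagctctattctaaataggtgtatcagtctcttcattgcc
H2-Oa: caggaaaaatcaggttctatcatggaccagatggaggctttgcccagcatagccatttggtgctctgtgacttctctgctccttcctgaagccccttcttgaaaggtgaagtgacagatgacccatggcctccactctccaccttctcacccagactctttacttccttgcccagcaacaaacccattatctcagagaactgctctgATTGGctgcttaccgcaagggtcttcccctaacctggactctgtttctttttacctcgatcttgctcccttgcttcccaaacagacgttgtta
The first base of the capitals lies 48 bases before the start in H2-Aa, 59 in H2-Eb1, 61 in H2-DMb1, 57 in H2-Ob and 43 in H2-Oa. A match of letters is a description, and binding was not measured.

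Immunoglobulin genes were brighter in DN1 than on any other array. Of 24 measured genes of these loci, 22 were lower in DN2 and none higher, with a median of -5.66. Igha, the constant gene of IgA, was 42416 in DN1 and 294 in DN2. Jchain, which joins IgA and IgM units in plasma cells, was 7166 in DN1 and 122 in DN2, and Ighg3 3932 in DN1 and 4.90 in DN2. The kappa variable genes Igkv6-23 and Igkv4-91 were 53204 and 17408 in DN1 and 756 and 246 in DN2. Most of these probe sets carry the suffix _f_at and may read several variable genes, so single members are uncertain. Ighm had 52870.3, 3009, 4110.2, 6792 and 8496 from DN1 to DP by the probe set used, well above the floor on all of them, while another of its probe sets read 35119 in DN1 and 185 in DN2.

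In the B-lineage list, which also holds Igha and Ighm, 19 of 33 measured members were lower in DN2 and 1 was higher, with a median of -1.17. Cd79a, a chain of the B-cell receptor complex, was 1691 in DN1 and 45.6 in DN2, and the linker gene Blnk 853 in DN1 and not above the floor in DN2. Ms4a1, which encodes CD20, was 1605 in DN1 and 66.2 in DN2. Pax5, the factor that defines the lineage, was dim, at 308 in DN1 and 137 in DN2, with a second probe set under the floor. Cd79b was 1667 in DN1 and 830.3 in DN2 and above the floor on every array. Btk and Plcg2, kinase and phospholipase of B-cell receptor signalling, had log2 ratios of -0.16 and -0.85, and Napsa 8845 in DN1 and 3172 in DN2. Rag1 was the member higher in DN2. Xbp1, a factor of plasma cells, had a log2 ratio of -0.68.

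Natural killer genes were few above the floor. Of 34 on the array 17 were above it in DN1 and 11 in DN2, and of 18 measured 6 were lower in DN2, with a median of -0.47. Klrd1, a chain of an inhibitory receptor, was 338 in DN1 and 14.2 in DN2, and the chemokine gene Ccl5 1678 in DN1 and 607 in DN2. Ncr1, Eomes and Prf1, also genes of these cells, were under the floor on both arrays. Gzma had a log2 ratio of 0.42. Cpa3 was the single mast-cell gene higher in DN2. Fcer1a and Mcpt8, which define mast cells and basophils, were under the floor on both arrays.

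Erythroid and stromal genes gave no common direction. Of 14 measured erythroid and platelet genes 2 were higher and 2 lower. Hbb-b2, a globin gene, was 189.8 in DN1 and 570.1 in DN2 and at most 7.83 in the later populations, while Hba-a1 had 161 in DN1 and 238 in DN2. Gata1 and Pf4 were under the floor on both arrays. Cd9 and the carbonic anhydrase gene Car2 were 4.31-fold lower and 3.84-fold lower. Of 13 measured stromal genes Fn1, which encodes fibronectin, was lower, at 623 in DN1 and 14.5 in DN2, and Foxn1 of thymic epithelium was under the floor on both.

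Interferon-regulated genes were lower for 14 of 31 and higher for none, with a median of -0.94. Several of them are also known from phagocytes and dendritic cells, and how far such cells bear on these ratios was not tested. Irf7, the master factor of interferon alpha induction, was 2324 in DN1 and 242 in DN2, and its weaker probe set had a log2 ratio of -1.75. Irf5 was 1642 in DN1 and 192 in DN2. Among genes that interferon induces in most cells, Isg15 was 3.59-fold lower at 2949 in DN1 and 821 in DN2, the protease gene Usp18 6.93-fold lower, Mx1 at least 5.39-fold lower and Ifitm3 3.22-fold lower at 4716 in DN1 and 1463 in DN2. Irf1 and Irf3 had log2 ratios of -0.08 and 0.24.

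Class I presentation genes were closer. Of 14 measured none was 2-fold lower and 1, the transporter gene Tap2, was higher at 1647 in DN1 and 3340.0 in DN2. The median was -0.49. B2m, the light chain, had a log2 ratio of -0.51, H2-K1 -0.77 and H2-D1 -0.79. Weaker probe sets of these heavy chain genes gave -1.08 and 0.01 for H2-K1, and -0.95 and -1.22 for H2-D1. The H2-K1 probe set at 0.01 was under the floor in DN1. Tap1, the partner of Tap2, had -0.63.

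Lysosomal genes, many of them active in phagocytes, were lower for 18 of 34 and higher for none, with a median of -1.14 (-0.59 with the mean over probe sets). The thiol reductase gene Ifi30 was 7349.5 in DN1 and 143 in DN2, and the cathepsin genes Ctss and Ctsh were 9699.9 in DN1 and 244 in DN2 and 2580.2 in DN1 and 63.0 in DN2. Psap, a precursor of sphingolipid activators, was 5.46-fold lower at 12577 in DN1 and 2305 in DN2. The membrane proteins of all lysosomes, Lamp1 and Lamp2, had log2 ratios of -0.32 and -0.30, and Ctsd one of 0.09.

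The NF-kappaB and TNF family list had 9 of 26 lower and none higher, with a median of -0.73. Relb and Nfkb2, subunits of the alternative pathway, were at least 4.99-fold lower and 3.80-fold lower, with a second Relb probe set at 154 in DN1. Nfkbia, the inhibitor that the pathway induces, was 3.69-fold lower at 3722 in DN1 and 1009 in DN2, and a second probe set had a log2 ratio of -1.74. Traf1 was at least 7.76-fold lower, Bcl3 at least 6.60-fold lower and Traf5 6.71-fold lower. The subunit Rela and the kinase gene Ikbkb had -0.12 and 0.33. Ltb, which encodes lymphotoxin beta, stood near the threshold, at 5943 in DN1 and 2955 in DN2.

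Immediate early and stress genes were lower for 11 of 37 and higher for 2, with a median of -0.61. Klf4, a factor of monocytes and stem cells, was 582 in DN1 and 30.3 in DN2, Atf3 422 in DN1 and 51.8 in DN2 and Zfp36, which speeds the decay of cytokine mRNAs, 496 in DN1 and 45.9 in DN2. Its relative Zfp36l2 went the other way, 2.20-fold higher at 5075 in DN1 and 11170.0 in DN2. Fos was 255 in DN1 and 34.8 in DN2, Junb had a log2 ratio of -0.95, and the chaperone gene Hspa8 one of 0.12. Hspa5, a chaperone of the endoplasmic reticulum, was 2.36-fold lower at 5903 in DN1 and 2502 in DN2.

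Adhesion and homing genes were lower for 14 of 31, with 1, Icam2, higher at 495 in DN1 and 1045 in DN2, and a median of -0.80. Itgb2, the common chain of leukocyte integrins, was 2093, 136, 171, 563 and 2637 from DN1 to DP, 15.4-fold lower in DN2. Itgb7, a chain of gut-homing integrins, was 4116 in DN1 and 1176 in DN2, and the chemokine receptor genes Ccr6 and Cxcr3 were 541 in DN1 and 26.7 in DN2 and 458 in DN1 and 62.7 in DN2. Among receptors known to guide progenitors to and in the thymus, Ccr7 was 485 in DN1 and 81.7 in DN2 and at least 3.72-fold lower. Ccr9 was 227 in DN1 and 73.8 in DN2, and Cxcr4 and Itga4 had log2 ratios of 0.70 and 0.89.

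Genes of mature thymocytes and peripheral T cells were lower for 9 of 17, with a median of -1.05, and Il7r was the member higher. Slfn2, a gene of quiescent lymphocytes, was 4719 in DN1 and 323 in DN2, and Cd52, a surface glycoprotein of lymphocytes, 10041 in DN1 and 1403 in DN2. Both were bright again in DP, at 4399 and 6652. Klf2, a factor of T-cell exit, was 143 in DN1 and 44.9 in DN2. Of 32 measured phosphatases and MAP kinase regulators 4 were lower, or 12.5%, near the 8.56% of all measured genes. Among them were Inpp5d, which encodes the lipid phosphatase SHIP, at 2052 in DN1 and 635 in DN2, and the kinase gene Fgr at 602 in DN1 and 97.9 in DN2. Dusp6, a phosphatase induced by ERK signalling, was 606 in DN1 and 227 in DN2. Ptprc, which encodes CD45, had a log2 ratio of -0.44, and Ptprcap, its associated protein, 0.90.

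Further genes with high DN1 signal were in none of the lists. The calcium-binding protein genes S100a6 and S100a4 were 4293 in DN1 and 181 in DN2 and 4186 in DN1 and 354 in DN2. Gsn, which encodes the actin-severing protein gelsolin, was 3089 in DN1 and 142 in DN2 and 2229 in DP. Cadm1, an adhesion molecule gene, was 2221 in DN1 and 138 in DN2, the creatine kinase gene Ckb 2409.5 in DN1 and 172 in DN2, App 1421 in DN1 and 131 in DN2 and the haptoglobin gene Hp 2196 in DN1 and 206 in DN2. Of those under the floor in DN2, Plbd1, a phospholipase-like gene, was 9672 in DN1, and Ahnak, a giant scaffold protein gene, 3698.

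The arrays that did not enter the ratio set the directions apart. Of the 441 genes lower in DN2, 183 (41.5%) were under the floor in DN3, preDP and DP alike, against 437 (8.48%) of all 5154 genes. Of the 245 genes higher in DN2 it was 3, and 212 (86.5%) were above the floor on all 3 later arrays, against 79.8% of all. A gene counted as lower needed to be above the floor in DN1 alone, and one counted as higher in DN2 alone, and the populations follow each other, so these shares are a description. A further 170 of the lower genes were above the floor on all 3 later arrays, such as Btg1, Cd52, Itgb2 and Nfkbia.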

How the data were processed

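Total RNA of 5 sorted thymocyte populations was hybridised to 1 Affymetrix array each. Per the submitters' processing notes, the authors made the deposited linear probe set intensities with Affymetrix Expression Console 1.0 and MAS5. The trimmed mean of each array lay between 500.3 and 500.4. Detection calls and scaling settings were not used here. Of 12488 probe sets, 10833 have 1 gene symbol in the platform annotation and were used, 396 have several, 1193 have none and 66 are controls.

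Values under the floor, the 50th percentile of the values of those probe sets over the 5 arrays, were set to it before log2. Each of 8251 genes was read by its probe set with the highest mean floored log2 value over the 5 arrays. Genes above the floor in DN1 or DN2 were called by a 2-fold difference. The counting was tested on simulated data (Python 3.11.15, pandas 2.3.3). Single genes were named as the 25 highest and 25 lowest ratios measured on both arrays, the 15 brightest in each direction with the other array under the floor, and members of 40 gene lists. Not each of them is described. Some others were named outside these rules, among them Pdlim1, S100a4, Ckb, App, Hp, Ahnak, Ighg3, Fut8, Tspan9 and Sstr2. The comparison, its members and the lists were chosen with earlier results of these data known. With 1 array per population the precision is unknown, and other scalings, floors and probe set choices were tried (7, and 2 more chosen after seeing the data).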

Additional observations from a re-analysis of the deposited data

How the results depend on the processing

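The balance of higher and lower genes depended on the scaling. Against 245 genes higher and 441 lower in DN2, an equal median gave 524 higher and 347 lower, so that the larger group became the higher one, the floor at the 35th percentile 379 higher and 685 lower, the floor at the 65th percentile 262 lower, adding a constant to all signals with no floor 135 higher, and DN2 scaled to a median ratio of 1, an alternative added after seeing the data, 133 higher and 511 lower. A lower floor leaves more genes measured and a higher one fewer. For the other settings the cause was not tested. Without the genes of other cell types and immunoglobulins, also added after seeing the data, 240 were higher and 320 lower. Among the named genes that were 2-fold apart none took the other sign, which was not followed for smaller ratios, and 65 genes higher and 174 lower were 2-fold apart under every setting of scale, floor and probe sets. Of 291 named genes that were 2-fold apart, 156 stayed so in every setting that measured them. Genes named outside the stated rules entered neither this count nor that of changed signs. Of 40 list medians, 10 took both signs: those of the sort markers, alpha and beta receptor segments, receptor signalling, Notch, JAK and STAT, cyclins, Bcl2 family, ribosomal, glycolysis and stromal genes. With the floor at the 35th percentile the median of the sort markers was -1.04 and that of dendritic-cell genes -2.98. With the floor at the 65th percentile the medians were -0.48 for alpha and beta receptor segments, -2.84 for neutrophil genes and -1.82 for dendritic-cell genes. The mean over probe sets gave -2.79 for neutrophil, -1.46 for monocyte and macrophage and -0.59 for lysosomal genes. For these medians the cause was not tested. No paired analysis was possible because each population had 1 array, which also leaves no replicate to leave out. Genes under the floor on both arrays, and the size of a fold against the floor, are beyond what these signals show.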

Other observations

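Probe sets without a single gene symbol were in no comparison above. Of 1193 with no symbol, 395 were above the floor in DN1 or DN2, 26 of them at least 2-fold higher in DN2 and 50 at least 2-fold lower. Of 396 with several symbols, 245 were above the floor, 13 higher and 28 lower. The highest ratios among those above the floor on both arrays were 4.96-fold and 4.04-fold, and the largest differences the other way were 110.0-fold and 82.4-fold lower, all by probe sets with no symbol.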
